A study of Homo sapiens with 6 samples.

Results

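The ZBTB genes encode transcription factors that join an N-terminal BTB (or POZ) domain to C2H2 zinc fingers. They were taken as the rows of the count table whose symbol is ZBTB followed by a number and at most 1 letter, which gave 41 of 26485 genes. RNA had been sequenced in 6 libraries of OCI-LY8, an established human B-cell lymphoma line. The 3 control libraries are from cells with the guide sgNTC1, a control guide (genotype WT). The 3 others are from cells with the guide sgSETD1BKO1 and are labelled SETD1B knockout. SETD1B encodes a histone H3 lysine 4 methyltransferase. The design text of the series describes a KMT2D mutant background, which both groups would then share, but it names the line OCI-LY19, whereas each of the 6 samples is labelled OCI-LY8. Each group carries 1 guide name, and nothing says that its libraries come from separate cultures or clones. The p-values therefore measure only how these samples vary, which may be technical, and effects of the guide and of the cell population that carries it cannot be told apart.

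In this family the zinc fingers read a DNA sequence, and the BTB domain forms dimers and recruits corepressor complexes such as those of NCOR1 and BCOR. Most studied members act mainly as repressors. In lymphocytes the family is known for lineage decisions, among them the germinal centre programme held by BCL6, which has the same architecture under another symbol. Other members bind methylated DNA, telomeric DNA or promoters of cell cycle genes.

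The libraries held 28726108 to 34453249 counted reads. Levels are given as CPM, reads relative to the library size after TMM scaling, and means as mean ± SD with n = 3. A log2 fold change is positive where the knockout was higher and comes from the quasi-likelihood test of edgeR. A gene passed at an adjusted p under 0.05 over the 12907 genes tested. Knockout replicate 3 stood apart, at -30.1 on the second principal component against 15.0 and 20.8 for the other knockout libraries. In the 10% of genes richest in GC its median log2 deviation from the mean of all libraries was -0.59, against 0.15 and 0.30 in knockout replicates 1 and 2. Calls of ZBTB genes and counts over the gene lists are therefore also given without it, whereas genes near the ZBTB genes are described with all 6 libraries. The SETD1B transcript had 56.1 ± 3.25 CPM in the controls, against 77.6 ± 19.5 CPM in the knockouts (log2 0.47, edgeR adjusted p = 0.14; log2 0.66, edgeR adjusted p = 8.1e-07 without knockout replicate 3), so its level does not check the edit, and knockout is used here as the label gives it. All 6 B-cell markers were tested. PAX5 and CD22 rose (log2 0.66 and 0.59, edgeR adjusted p = 0.0040 and 0.0026), and the CD20 gene MS4A1 fell (441 ± 8.83 and 259 ± 29.9 CPM, log2 -0.77, edgeR adjusted p = 0.0013). Of these markers 5 were higher and 1 lower without knockout replicate 3. Over all tested genes, 15.0% passed with all libraries and 44.4% without that library. Of 5 tested germinal centre markers BCL6, S1PR2 and MYBL1 rose (log2 0.59, 1.37 and 0.66) and LMO2 fell (log2 -0.44), with the same counts without knockout replicate 3. The call of LMO2 held under 9 of 15 alternative fits, and those of BCL6, S1PR2 and MYBL1 under 15 of 15. Of the markers of other cell types, CD3D, S100A8, S100A9, COL3A1, KRT18 and CDH1 were at 0 counts in all 6 libraries. The 6 fibroblast markers went different ways. Their sum was 0.345 to 0.493 CPM in the controls, against 2.63 to 3.64 CPM in the knockouts, most of it LUM (2.43 CPM). LUM and DCN, the 2 tested, had 0 and 1 reads in the controls, against 223 and 38 in the knockouts. They passed the low-count filter only through the knockouts, so their direction was set by the filter. Both rose, also without knockout replicate 3. COL1A1 went from 32 to 14 reads and PDGFRB from 7 to 0, and neither was tested. The part of these markers in the results was not tested.

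Of the 41 genes, 38 had at least 1 count and 32 passed the filter on low counts. The 32 tested genes spanned 0.499 to 152 CPM in the controls, with a median of 24.5 CPM, and all 41 together summed to 1186 ± 5.86 CPM in the controls, against 1194 ± 25.0 CPM in the knockouts. Per kilobase of annotated exon, ZBTB33, ZBTB1 and ZBTB18 stood highest in the controls. ZBTB33 encodes Kaiso, a reader of methylated CpG, and had 130, 128 and 132 CPM in control replicates 1, 2 and 3 and 122, 112 and 133 CPM in the knockouts, or 24.5 CPM per kb in the controls. The groups overlapped, because knockout replicate 3 was the highest of all 6 libraries while replicates 1 and 2 were the lowest.

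ZBTB1, which is needed for lymphoid development in mice, had 85.6, 88.7 and 87.9 CPM in the controls, against 83.7, 78.8 and 91.5 CPM in the knockouts (16.5 CPM per kb in the controls). ZBTB18, a repressor best known from neuronal development, had 63.8, 62.0 and 66.2 CPM in the controls, against 65.0, 59.5 and 63.1 CPM in the knockouts (16.4 CPM per kb). In both genes the groups overlapped, and neither passed (log2 -0.05, edgeR adjusted p = 0.72 and log2 -0.03, edgeR adjusted p = 0.78). At the low end of the tested genes stood ZBTB37, ZBTB20, ZBTB38 and ZBTB16, with 0.304, 0.177, 0.153 and 0.0783 CPM per kb in the controls. Exon lengths came from GENCODE 29 and join all annotated exons, 31872 bases for ZBTB20, so a gene with many transcripts appears lower on this scale.

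**Figure D1:**
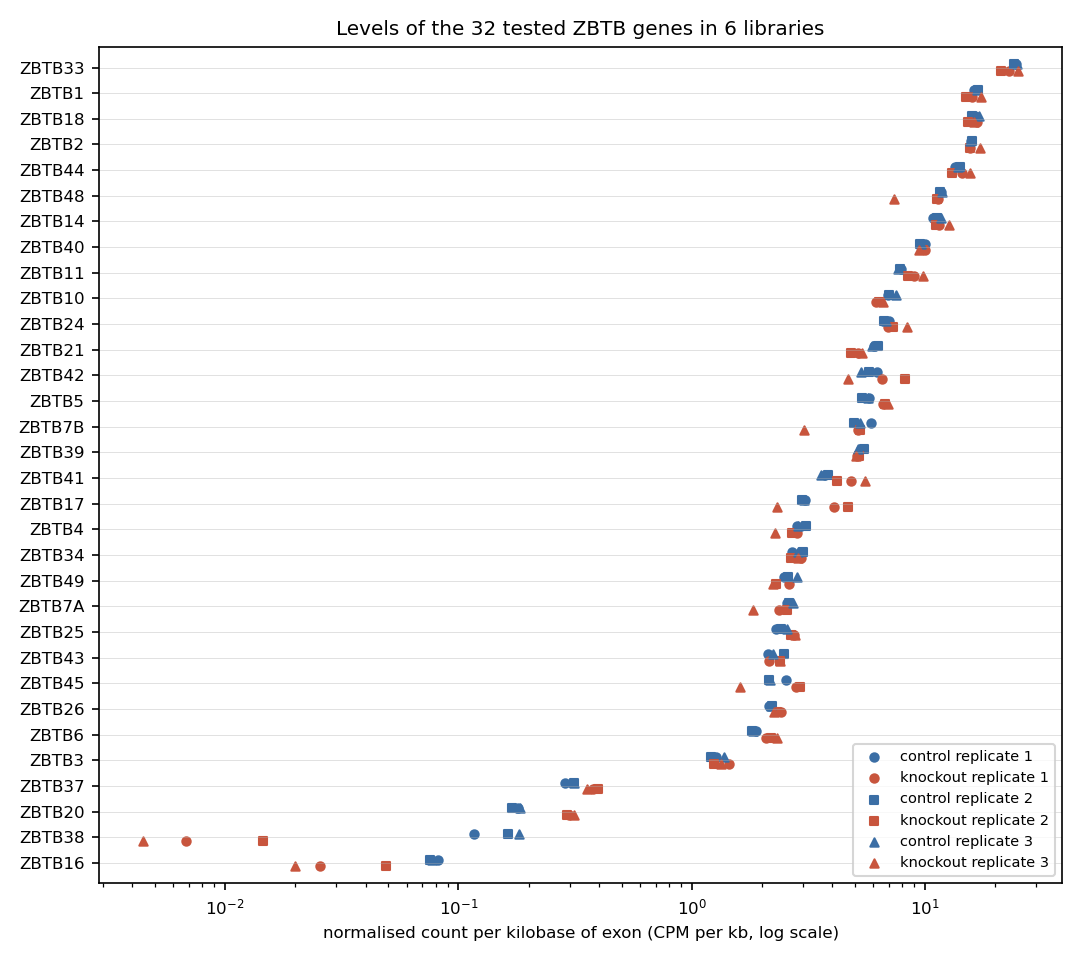
Normalised count per kilobase of exon (log scale) of the 32 tested ZBTB genes, ordered by the control mean, with each library as a point. Control and knockout points of most genes lie together, those of ZBTB38, ZBTB16 and ZBTB20 lie apart, and knockout replicate 3 lies to the left for genes such as ZBTB48, ZBTB7B and ZBTB17.

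In the comparison of knockout with control, 3 ZBTB genes rose (ZBTB20, ZBTB41 and ZBTB5) and 3 fell (ZBTB38, ZBTB16 and ZBTB21), while 26 of the 32 did not pass. These 6 are 18.8% of the tested members, and 15.0% of all tested genes passed (5.71% higher and 9.33% lower), so the share lies near that of the whole table. The median log2 fold change was 0.02 over the members and -0.01 over all tested genes, and the median size was 0.17 and 0.15. In 25 members the change was under 1.2-fold, 78.1% against 72.2% of all tested genes. At least 2-fold differences were seen in 2 members, ZBTB38 and ZBTB16, and in 3.66% of all tested genes. Both members passed the low-count filter through the control libraries alone. Members as low in both groups as these were in the knockouts were not tested, so the filter favoured large falls among low members. The 3 knockout values lay wholly on 1 side of the 3 control values in 14 members (8 above and 6 below), 43.8% against 37.7% of all tested genes (16.5% above and 21.3% below).

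Without knockout replicate 3, 9 members were higher and 5 lower of 33 tested, or 42.4% against 44.4% of all tested genes (21.6% higher and 22.8% lower). The 6 genes named above passed there in the same direction. The others that passed were ZBTB11, ZBTB17, ZBTB25, ZBTB37, ZBTB42 and ZBTB45 upward and ZBTB10 and ZBTB33 downward.

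**Figure D2:**
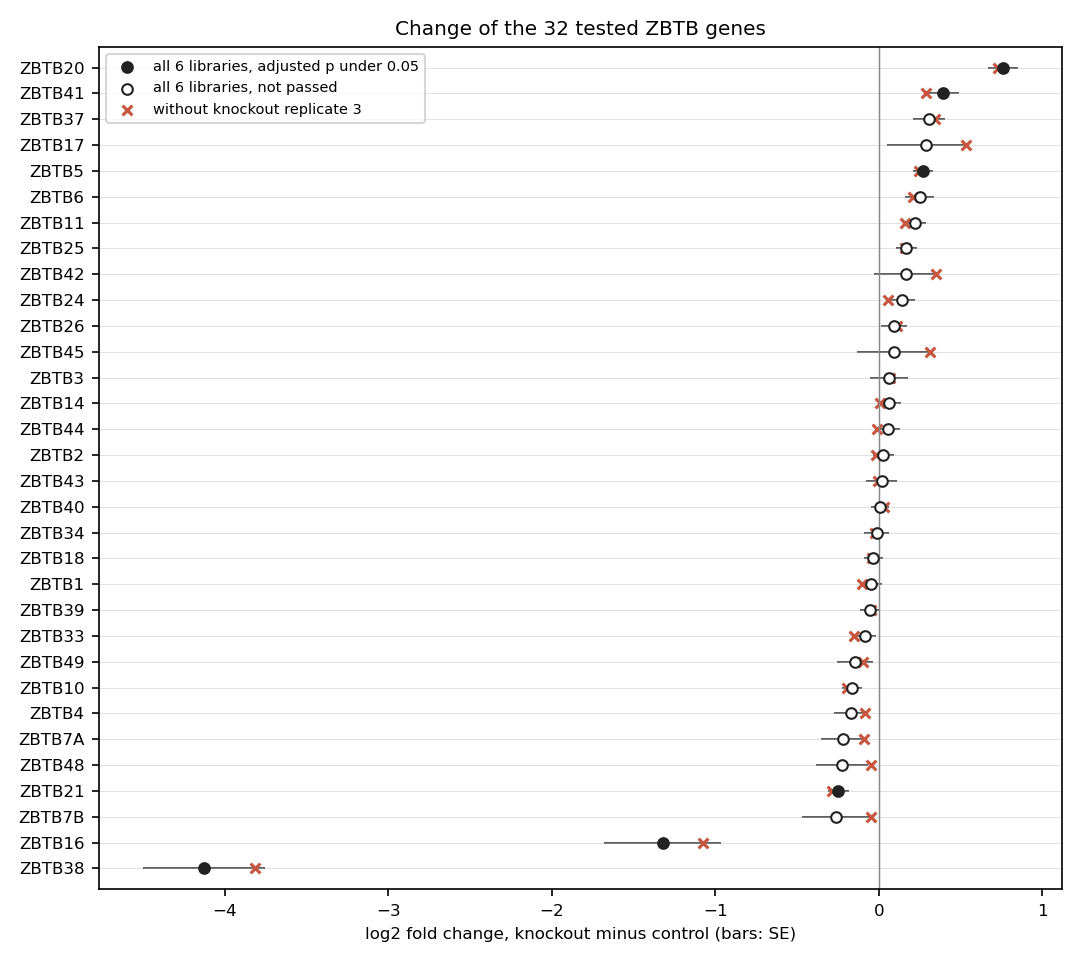
Log2 fold change (knockout minus control) of the 32 tested ZBTB genes with its SE, filled where the edgeR adjusted p was under 0.05, and the value without knockout replicate 3 as a cross. ZBTB38 at -4.13 and ZBTB16 at -1.32 stand apart from the rest, which lie between -0.26 and 0.76.

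Among the readers of methylated DNA, ZBTB38 fell and ZBTB33 and ZBTB4 did not pass. ZBTB38 (chromosome 3, 141324213 to 141449792, plus strand, hg38), whose product binds single methylated CpGs, had 1.65, 2.31 and 2.59 CPM in control replicates 1, 2 and 3. In knockout replicates 1, 2 and 3 it had 0.0971, 0.208 and 0.0633 CPM, which come from 3, 6 and 2 reads against 57, 67 and 79 in the controls. Every knockout library was thus far below every control library, and fewer cells with the transcript or less of it per cell cannot be told apart. The fall was 17.5-fold (log2 -4.13, SE 0.37, edgeR adjusted p = 6.2e-04) and 14.1-fold without knockout replicate 3 (edgeR adjusted p = 8.3e-06). The summed reads, 203 against 11, give a ratio of 18.2 with an exact 95% interval of 9.94 to 37.0, which covers counting error only. ZBTB33 had a log2 fold change of -0.09 (edgeR adjusted p = 0.48) and -0.15 once knockout replicate 3 was left out (edgeR adjusted p = 0.0087, past the threshold). ZBTB4, another methyl-CpG binder, went from 17.9 ± 0.908 to 15.9 ± 1.72 CPM (log2 -0.17, edgeR adjusted p = 0.31).

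Of 7 tested genes with roles in lymphoid and blood cell development, ZBTB20 rose, ZBTB16 fell and 5 did not pass. ZBTB20 (chromosome 3, 114314501 to 115147271, minus strand, hg38) is expressed in germinal centre and plasma cells in mice, where it sustains antibody responses. It had 5.74, 5.39 and 5.83 CPM in control replicates 1, 2 and 3 and 9.45, 9.32 and 9.97 CPM in the knockouts. The knockout libraries agreed closely and all lay above the controls, a 1.69-fold rise (log2 0.76, SE 0.09, edgeR adjusted p = 0.0022) that was 1.66-fold without knockout replicate 3. Its exons overlap those of MIR568 and of the antisense genes ZBTB20-AS1 and ZBTB20-AS3, which have rows of their own in the table, and it is unknown whether the counting used strand.

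ZBTB16 (chromosome 11, 114059593 to 114250676, plus strand, hg38) encodes PLZF, which drives innate-like T-cell development and is fused to RARA in a form of acute promyelocytic leukaemia. It had 0.522, 0.484 and 0.491 CPM in control replicates 1, 2 and 3, and 0.162, 0.312 and 0.127 CPM in the knockouts. Its groups did not overlap, at a level of 4 to 18 reads a library. The fall was 2.50-fold (log2 -1.32, SE 0.36, edgeR adjusted p = 0.048), and the summed reads, 47 against 18, give a ratio of 2.57 (exact 95% interval 1.46 to 4.70). The call was lost without control replicates 1, 2 and 3 in turn (edgeR adjusted p = 0.15, 0.14 and 0.14), without knockout replicate 1 (edgeR adjusted p = 0.15) and with DESeq2 (adjusted p = 0.19). It was also lost with no low-count filter (edgeR adjusted p = 0.056) and with the replicate number as a block (edgeR adjusted p = 0.089). The 9 T and NK markers summed to 7.29 to 7.65 CPM in the controls, against 4.33 to 5.92 CPM in the knockouts. Most of that was CD8A, the 1 gene tested, which did not pass (6.69 ± 0.253 and 4.58 ± 0.940 CPM, log2 -0.55, edgeR adjusted p = 0.054) except without knockout replicate 3 (edgeR adjusted p = 0.018). The 9 myeloid markers summed to 21.0 to 26.8 CPM and 9.84 to 14.8 CPM. Of the 5 tested, LYZ, ITGAM, TYROBP and CST3 fell (log2 -1.29, -1.61, -0.99 and -0.71), also without knockout replicate 3, and FCER1G did not pass (log2 0.30). Only the fall of ITGAM passed under all 15 alternative fits. Those of LYZ, TYROBP and CST3 passed under 10 of 14, 11 of 14 and 9 of 15, and all 3 were lost without control replicate 1 or 2. CD14, not tested, had 0.329 and 0.412 CPM on average. The part of these markers in the fall of ZBTB16 was not tested.

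The other 5 genes of this group were ZBTB1, ZBTB7A, ZBTB7B, ZBTB17 and ZBTB24. ZBTB17 encodes MIZ1, a partner of MYC, and had 12.9, 12.6 and 12.9 CPM in the controls, against 17.2, 19.9 and 9.87 CPM in the knockouts. Knockout replicates 1 and 2 were thus above all controls and replicate 3 below them. The log2 fold change was 0.29 (edgeR adjusted p = 0.49) with all libraries and 0.53 without knockout replicate 3 (edgeR adjusted p = 2.1e-04). ZBTB7B, which encodes ThPOK, the factor of CD4 T-cell commitment, went from 23.1 ± 2.05 to 19.3 ± 5.39 CPM (log2 -0.26, edgeR adjusted p = 0.47). ZBTB7A, which encodes LRF, a repressor of fetal globin genes, went from 15.0 ± 0.472 to 12.9 ± 2.18 CPM (log2 -0.22, edgeR adjusted p = 0.31). Without knockout replicate 3 the log2 values of ZBTB7B and ZBTB7A were -0.05 and -0.09 (edgeR adjusted p = 0.62 and 0.35). ZBTB24, a gene mutated in ICF immunodeficiency syndrome, went from 37.6 ± 0.915 to 41.5 ± 4.01 CPM (log2 0.14, edgeR adjusted p = 0.31).

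Of 4 factors described at the CDKN1A or MYC promoters, ZBTB5 rose and ZBTB2, ZBTB14 and ZBTB49 did not pass. ZBTB5 (chromosome 9, 37438114 to 37465399, minus strand, hg38), a repressor of the cell cycle inhibitor gene CDKN1A, had 26.6, 24.8 and 26.3 CPM in the controls, against 30.4, 31.2 and 32.1 CPM in the knockouts. All knockout libraries lay above all controls, by 1.20-fold on average (log2 0.27, SE 0.06, edgeR adjusted p = 0.029). The call was lost without control replicates 1, 2 and 3 in turn (edgeR adjusted p = 0.097, 0.15 and 0.12) and without knockout replicates 1 and 2 (0.075 and 0.065), and it held without knockout replicate 3 (log2 0.25, edgeR adjusted p = 0.0029). ZBTB2, ZBTB14 and ZBTB49 had log2 values of 0.03, 0.06 and -0.14. CDKN1A itself had a log2 fold change of -0.11 (edgeR adjusted p = 0.70).

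None of the 3 genes whose products bind telomeric DNA passed with edgeR, DESeq2 or limma-voom, and 1 (ZBTB10) had an unadjusted p under 0.05 with edgeR. ZBTB48, the telomere length regulator also called TZAP, had 52.5, 52.1 and 53.4 CPM in the controls, against 51.2, 50.5 and 33.3 CPM in the knockouts, so that knockout replicate 3 alone was far below the rest (log2 -0.23, edgeR adjusted p = 0.41; log2 -0.05, edgeR adjusted p = 0.35 without it). ZBTB10 had 70.7, 71.6 and 77.0 CPM in the controls, against 62.7, 65.1 and 67.7 CPM in the knockouts, groups that did not overlap (log2 -0.17, edgeR adjusted p = 0.12). It passed once knockout replicate 3 was left out (log2 -0.19, edgeR adjusted p = 0.0054). ZBTB40 was near 89 CPM in both groups (88.7 ± 2.18 and 89.2 ± 2.79).

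Among the 15 tested members outside these groups, ZBTB41 rose and ZBTB21 fell. ZBTB41 (chromosome 1, 197153680 to 197200542, minus strand, hg38) had 31.8, 32.8 and 30.6 CPM in the controls, against 41.3, 36.0 and 47.4 CPM in the knockouts. The knockout libraries all lay above the controls but were spread, with replicate 3 highest. The rise was 1.31-fold (log2 0.39, SE 0.10, edgeR adjusted p = 0.043) and 1.22-fold without knockout replicate 3 (edgeR adjusted p = 0.0029). It was lost without control replicates 1, 2 and 3 in turn (edgeR adjusted p = 0.15, 0.13 and 0.17), without knockout replicate 1 (0.11) and with library size as the only scaling (0.053). The replicate number as a block also lost it (edgeR adjusted p = 0.072).

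ZBTB21 (chromosome 21, 41986831 to 42010387, minus strand, hg38) had 48.5, 50.9 and 47.9 CPM in the controls, against 41.6, 38.9 and 43.4 CPM in the knockouts. The groups did not overlap, and the fall was 1.19-fold (log2 -0.25, SE 0.06, edgeR adjusted p = 0.044). It was lost without control replicates 1, 2 and 3 in turn (edgeR adjusted p = 0.14, 0.19 and 0.14), without knockout replicates 1 and 2 (0.18 and 0.10), under RLE scaling (0.062) and with DESeq2 (adjusted p = 0.081). It was also lost with no low-count filter and with the replicate number as a block. It held without knockout replicate 3 (log2 -0.28, edgeR adjusted p = 7.2e-04). The 13 other members of this group lay between ZBTB39 (log2 -0.06, edgeR adjusted p = 0.60) and ZBTB37 (log2 0.31, edgeR adjusted p = 0.083). They include ZBTB11 (log2 0.22, edgeR adjusted p = 0.073; edgeR adjusted p = 0.0089 without knockout replicate 3), whose exons overlap an antisense gene, and ZBTB44, the member with the most reads (152 ± 3.54 and 158 ± 14.3 CPM).

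**Figure D3:**
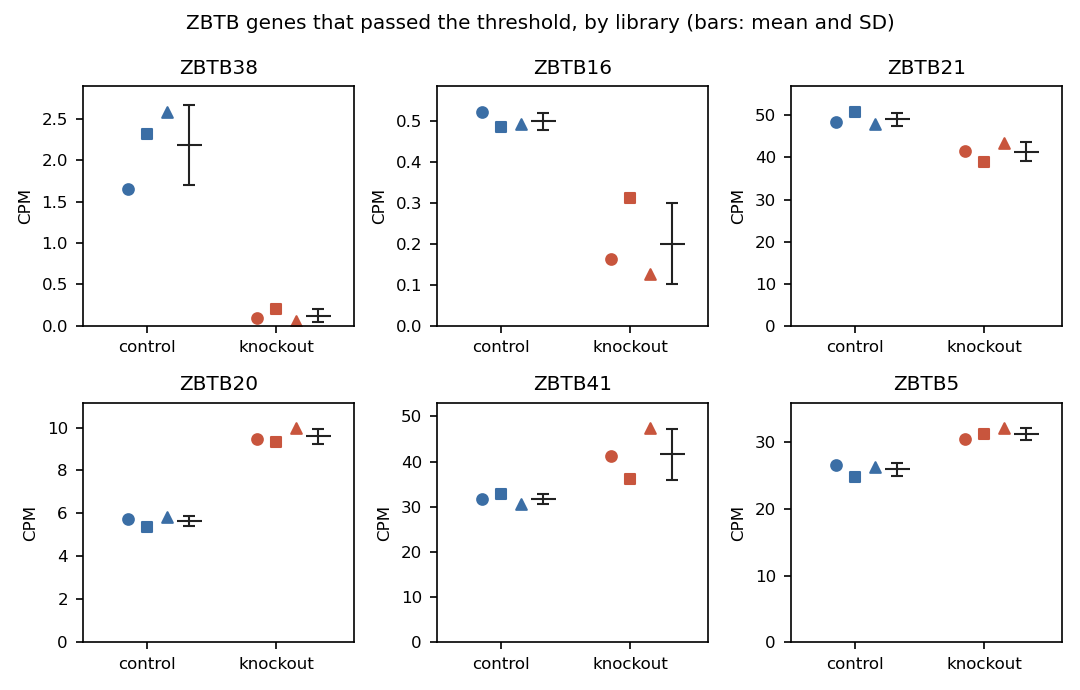
CPM of the 6 ZBTB genes that passed, with each library as a point (circle, square and triangle for replicates 1, 2 and 3) and the mean with its SD beside each group of 3. No knockout point overlaps the control points in any panel, and the separation is widest in ZBTB38 and, among the increases, ZBTB20.

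Start regions are shown for the 4 genes that passed and have an entry in the RefSeq promoter table (GRCh38.p14), because SETD1B works in a complex whose subunit CFP1 binds unmethylated CpG. Of the 41 genes, 35 matched the table. Each window holds 300 bases, 250 before and 50 after an annotated start, and of the annotated starts of a gene the one with the most CpG was taken. The data do not show which start is used. Windows are at chr3:141402099-141402398 (plus strand) for ZBTB38, chr3:115147239-115147538 (minus) for ZBTB20, chr21:42010311-42010610 (minus) for ZBTB21 and chr9:37465401-37465700 (minus) for ZBTB5. Capitals mark CG dinucleotides.
ZBTB38: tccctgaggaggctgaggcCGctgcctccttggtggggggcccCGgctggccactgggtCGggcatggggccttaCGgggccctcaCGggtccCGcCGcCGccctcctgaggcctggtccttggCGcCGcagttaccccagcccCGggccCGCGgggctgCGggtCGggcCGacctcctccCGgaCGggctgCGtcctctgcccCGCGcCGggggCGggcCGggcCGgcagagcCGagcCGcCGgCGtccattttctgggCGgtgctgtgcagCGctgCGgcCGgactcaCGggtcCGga
ZBTB20: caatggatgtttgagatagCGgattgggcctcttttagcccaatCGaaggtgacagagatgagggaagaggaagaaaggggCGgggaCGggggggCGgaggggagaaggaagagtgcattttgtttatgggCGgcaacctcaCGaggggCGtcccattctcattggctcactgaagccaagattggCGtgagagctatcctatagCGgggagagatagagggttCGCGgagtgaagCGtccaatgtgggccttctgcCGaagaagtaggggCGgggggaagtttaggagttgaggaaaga
ZBTB21: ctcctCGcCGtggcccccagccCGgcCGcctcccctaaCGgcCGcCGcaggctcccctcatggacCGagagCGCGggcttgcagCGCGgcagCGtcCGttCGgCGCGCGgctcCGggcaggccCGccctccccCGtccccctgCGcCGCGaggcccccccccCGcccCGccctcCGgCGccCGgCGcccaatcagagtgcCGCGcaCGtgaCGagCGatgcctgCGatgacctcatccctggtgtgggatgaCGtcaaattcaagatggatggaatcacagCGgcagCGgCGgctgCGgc
ZBTB5: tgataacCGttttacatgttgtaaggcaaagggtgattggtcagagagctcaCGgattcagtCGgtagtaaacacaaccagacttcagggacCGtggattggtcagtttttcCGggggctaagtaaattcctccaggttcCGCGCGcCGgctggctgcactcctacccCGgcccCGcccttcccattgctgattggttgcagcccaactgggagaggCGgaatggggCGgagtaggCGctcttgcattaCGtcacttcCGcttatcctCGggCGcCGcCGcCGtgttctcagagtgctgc
These windows hold 35, 15, 41 and 21 CG dinucleotides. The median over the tested members with an entry was 33, and whether the number of CG goes with the change was not tested. Over 10 annotated starts of ZBTB38 the number ranged from 0 to 35, and over 8 of ZBTB20 from 2 to 15. The median of the 35 matched genes was 31, against 16 over all 27305 genes in the table taken the same way, coding or not. The GC box GGGCGG, searched on both strands, was present in 31 of the 35 windows (88.6%) and in 47.0% of all genes' windows, and it overlaps the CG marked above.

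Position set ZBTB21 apart from the other 5. Of 114 other tested genes on chromosome 21, 66 were lower and 0 higher with edgeR (64 and 0 with DESeq2, 67 and 0 with limma-voom, and 78 and 0 at an unadjusted p under 0.05), with a median log2 fold change of -0.42, and of 16 tested genes within 1 Mb of ZBTB21 10 were lower and 0 higher, with a median of -0.44. ZBTB21, at -0.25, was therefore lower by less than the median gene of its chromosome, and its fall cannot be told apart from that of the chromosome. Around ZBTB38, 1 of 8 tested neighbours was higher (RASA2, log2 0.49) and 1 lower (RNF7, log2 -0.23), with a median of -0.03. None of the 7 tested neighbours of ZBTB20 passed with edgeR, DESeq2 or limma-voom (4 at an unadjusted p under 0.05 with edgeR), and of the 8 of ZBTB16 only CADM1 did (log2 -0.48). ZBTB41 lies beside ASPM, which encodes a mitotic spindle protein, and ASPM rose with a log2 fold change of 0.46 (edgeR adjusted p = 0.0075). Of the 15 tested neighbours of ZBTB5, PAX5, the B-cell identity factor, rose (log2 0.66) and 4 fell.

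**Figure D4:**
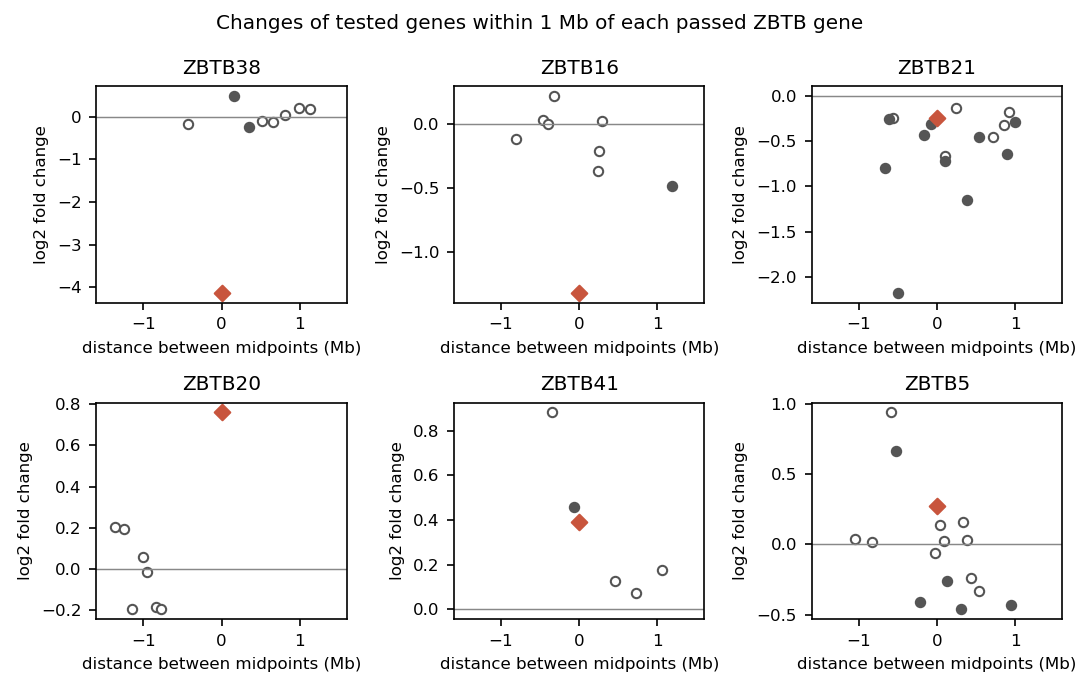
Log2 fold change of the tested genes within 1 Mb of each ZBTB gene that passed, against the distance between gene midpoints; diamonds are the ZBTB genes and filled points passed at an edgeR adjusted p under 0.05. All neighbours of ZBTB21 lie below 0, whereas those of ZBTB38 lie between -0.23 and 0.49 and those of ZBTB20 between -0.20 and 0.20.

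The ZBTB genes also differed by GC content in the knockout library that stood apart. In 7 tested members the longest transcript had more than 55% GC, a limit set after the values were seen. These were ZBTB48, ZBTB17, ZBTB7B, ZBTB42, ZBTB4, ZBTB7A and ZBTB45, and in all 7 knockout replicate 3 was the lowest of the knockout libraries. Their median log2 ratio to the control mean was -0.50 in knockout replicate 3, against -0.04 and -0.03 in replicates 1 and 2. In the other 25 members the medians were 0.07, 0.03 and -0.02. Across the 32 members Spearman's rho between GC content and this ratio was -0.64 in knockout replicate 3 and -0.03 and 0.08 in replicates 1 and 2, a description over genes that share libraries. Pearson's r over the same members, ZBTB38 included, was weaker in knockout replicate 3 at -0.20, against 0.07 and 0.15 in replicates 1 and 2. After a correction for GC content 7 members were higher and 7 lower, or 43.8% against 37.4% of all tested genes (17.8% higher and 19.5% lower). The 6 genes named above were among them, with ZBTB38 at log2 -4.14 and ZBTB20 at 0.74. The others were ZBTB11, ZBTB17, ZBTB25 and ZBTB42 upward and ZBTB7B, ZBTB10, ZBTB33 and ZBTB48 downward.

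**Figure D5:**
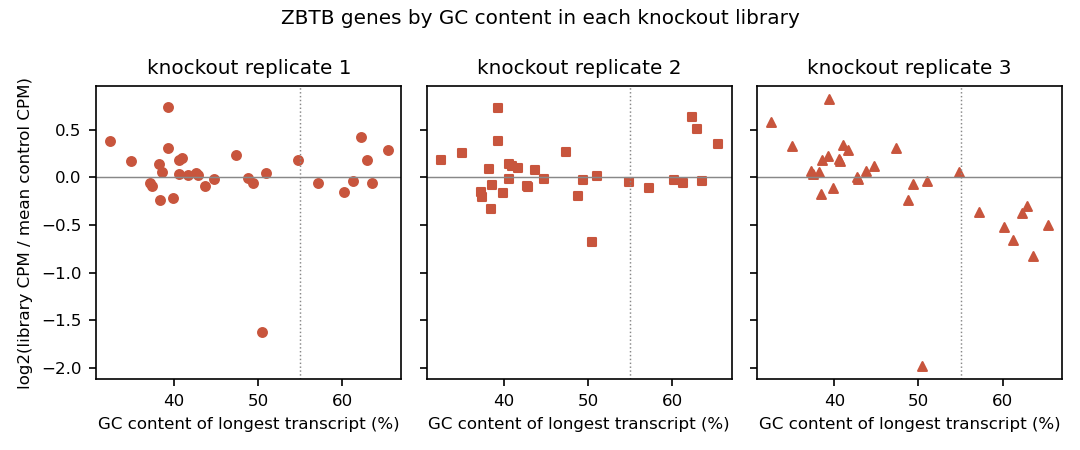
Log2 ratio of each knockout library to the control mean against the GC content of the longest transcript for 31 tested ZBTB genes (ZBTB38, below the range shown, is left out); the dotted line marks 55% GC. All 7 genes right of the line lie below 0 in knockout replicate 3, where their median was -0.50, and nearer to 0 or above it in replicates 1 and 2.

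The 9 members that were not tested had few or no reads. ZBTB8B, ZBTB7C and ZBTB32 had 0 counts in all 6 libraries, which allows up to 3 counts, or 0.0871 to 0.104 CPM. ZBTB32 is expressed in activated and memory B cells in mice and limits their antibody response. ZBTB8A had 2 reads, ZBTB12 had 1 and ZBTB22 had 1 over all libraries. ZBTB46, a marker of classical dendritic cells, had 0.235 ± 0.0517 CPM in the controls, against 0.140 ± 0.0973 CPM in the knockouts, ZBTB47 had 0.184 ± 0.0735 and 0.214 ± 0.193 CPM, and ZBTB9 had 0.332 ± 0.0452 and 0.232 ± 0.0641 CPM. ZBTB12, ZBTB22 and ZBTB9 lie in or next to the MHC region of chromosome 6. Of 92 coding genes within 1 Mb of ZBTB12, 77.2% were under 1 CPM, against 44.5% of all coding genes in the table. For ZBTB22 and ZBTB9, whose windows overlap, the shares were 60.4% and 58.7%. The other untested members had lower shares, down to 12.5% for ZBTB7C. High shares were not particular to low members: they were 100% of 4 genes for ZBTB14, 71.4% of 14 for ZBTB41 and 62.5% of 24 for ZBTB40. These members had 46.4, 31.7 and 88.7 CPM in the controls. Every other tested member was below 58.7%. The part of the region in the low counts of ZBTB12, ZBTB22 and ZBTB9 was not tested.

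Among 8 genes of the same architecture under other symbols, 6 were tested, of which BCL6 rose and 5 did not pass. BCL6 had 160, 150 and 148 CPM in the controls, against 247, 241 and 203 CPM in the knockouts, a 1.51-fold rise (log2 0.59, SE 0.08, edgeR adjusted p = 0.0042). Of the others, MYNN and GZF1 had the largest values (log2 0.25 and -0.25, edgeR adjusted p = 0.082 and 0.089). BCL6, MYNN and PATZ1 were higher and GZF1 lower without knockout replicate 3. Of 27 tested corepressor and BTB partner genes, 1 fell and 26 did not pass, with a median log2 fold change of 0.06. Over all tested genes 15.0% passed (9.33% lower). TBL1X, a subunit of the NCOR complex, went from 55.1 ± 1.64 to 45.8 ± 0.775 CPM (log2 -0.27, edgeR adjusted p = 0.019). This call was lost without control replicates 1, 2 and 3 in turn (edgeR adjusted p = 0.10, 0.073 and 0.11) and without knockout replicates 1 and 2 (0.11 and 0.052). With the replicate number as a block it was lost too. Without knockout replicate 3, 9 of these genes were higher and 4 lower, in a fit where 44.4% of all tested genes passed.

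Partners of single members were counted in the same way, beside the same shares of all tested genes (15.0%, and 44.4% without knockout replicate 3). Of 3 other ICF syndrome genes, which share a disease with ZBTB24, HELLS rose from 114 ± 2.38 to 151 ± 12.3 CPM (log2 0.41, edgeR adjusted p = 0.0079, and 0.056 without control replicate 2) and DNMT3B fell from 38.6 ± 1.05 to 27.1 ± 1.96 CPM (log2 -0.51, edgeR adjusted p = 0.0042). CDCA7, whose transcription ZBTB24 activates, did not pass (log2 0.05, edgeR adjusted p = 0.58). The 6 other methyl-CpG readers gave 0 calls with edgeR and limma-voom and 1 with DESeq2, at log2 values of -0.22 to 0.24. With edgeR, 1 (MBD4) had an unadjusted p under 0.05, and 1 was higher and 1 lower without knockout replicate 3. Of 11 tested partners and targets of MYC and MIZ1, 1 fell, the MAX dimerisation gene MXI1 (log2 -0.46, edgeR adjusted p = 0.0042). Without knockout replicate 3, 2 were higher (MXD3 and MNT) and 4 lower (MXI1, MXD1, NPM1 and MYC). MYC had a log2 fold change of -0.19 with all libraries (edgeR adjusted p = 0.21) and -0.09 without that library (edgeR adjusted p = 0.019). Of 5 genes of the BCL6 and plasma cell axis, PRDM1 and JCHAIN fell (log2 -1.57 and -6.46, edgeR adjusted p = 3.0e-04 and 6.3e-08). JCHAIN went from 610 ± 15.0 to 6.94 ± 0.616 CPM. IRF4 (log2 0.19), XBP1 (0.04) and CIITA (0.56) did not pass. IRF4 and CIITA were higher without knockout replicate 3 (log2 0.21 and 0.74, edgeR adjusted p = 2.7e-04 and 2.5e-07).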

How the data were processed

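RNA of 6 OCI-LY8 libraries was purified on columns and made into stranded mRNA libraries, per the labels' protocols. The authors deposited whole-number read counts per gene symbol. CASAVA 1.8, Trimmomatic, HISAT2, featureCounts, DESeq2 and the hg38 build are named in the submitters' processing notes. For the counting step, the annotation, strand setting and treatment of multi-mapped reads were not given in the sources used here. A second deposited table of log2 values is the same counts scaled by 1 factor per library and was not used. There were 0 unused per-sample columns.

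Groups and replicate numbers came from the titles. The ZBTB genes and gene lists were chosen with earlier results of these data known. Counts were tested with edgeR 4.0.16 (R 4.3.3): genes with few reads were removed by filterByExpr, libraries were scaled by TMM, and a robust quasi-likelihood fit compared the groups, with Benjamini-Hochberg adjusted p-values over 12907 genes and a threshold of 0.05. Each SE was taken as the size of the log2 value over the root of the F statistic. The fit was tested on simulated counts. No replicate pair agreed within sampling noise (chi-square per degree of freedom 1.83 or more). The named genes are every ZBTB gene, those past the threshold and the 3 highest per length with all 6 values, and members of the gene lists that passed. Other genes named beside them (neighbours, and list members that did not pass or passed only without knockout replicate 3) were chosen after their values were seen. Positions, exon lengths and GC content came from GENCODE 29 on the same build, matched by symbol (23899 directly, 25 through another symbol, 2561 unmatched). GC content was known for 93.5% of tested genes.

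Alternatives were RLE scaling, library size only, no filter, a filter of 5 CPM in 3 libraries, DESeq2 1.42.0, limma-voom (limma 3.58.1), the replicate number as a block, a smooth GC trend per library as an offset, both together, other thresholds, and leaving out each library.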

Additional observations from a re-analysis of the deposited data

How the results depend on the processing

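ZBTB38 and ZBTB20 passed in the same direction under all 14 and 15 alternatives in which they were fitted, at log2 values of -4.70 to -3.81 and 0.73 to 0.79. ZBTB38 and ZBTB16 were not tested under the filter of 5 CPM. ZBTB41, ZBTB5, ZBTB16 and ZBTB21 kept their direction and passed under 9 of 15, 9 of 15, 7 of 14 and 6 of 15 alternatives.

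The count of lower ZBTB genes was 1 with no low-count filter, 1 with the filter of 5 CPM in 3 libraries and 1 with DESeq2, in place of 3, beside 6.57%, 9.55% and 8.41% of all genes. That gene was ZBTB38 with no filter and with DESeq2. It was ZBTB21 with the filter of 5 CPM, which left out ZBTB38 and ZBTB16. With an adjusted p under 0.01 there was 1 higher and 1 lower ZBTB gene, and 276 and 552 of all genes. With a 2-fold minimum there were 0 higher and 2 lower ZBTB genes, and 90 higher and 313 lower of all genes. The GC correction gave 7 higher and 7 lower ZBTB genes, and 2153 and 2354 of all genes in place of 737 and 1204. When each library was left out in turn the ranges were 1 to 9 higher and 1 to 5 lower ZBTB genes, and 252 to 2817 and 527 to 2978 of all genes, with the highest values without knockout replicate 3. Apart from the genes that the filter of 5 CPM left out, the cause of these shifts was not tested.

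Deviations of same-numbered libraries from their group means correlated at -0.0088, -0.10 and 0.08, and control replicate 1 correlated best with knockout replicate 2 (0.19). A pairing by replicate number was thus not seen. The shift of knockout replicate 3 enters all knockout deviations, so this check cannot exclude a pairing. With the replicate block there was 1 higher and 1 lower ZBTB gene (ZBTB20 and ZBTB38) and 450 higher (3.49%) and 876 lower (6.79%) of all genes. The replicate block with the GC correction gave 5 higher and 6 lower ZBTB genes and 1819 and 2075 of all genes.

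Signs turned in 9 members, none of which passed with all libraries, though ZBTB42 and ZBTB45 passed upward without knockout replicate 3 (adjusted p = 0.018 and 0.025) and ZBTB42 with the GC correction (0.034). With library size only, the log2 value was -0.011 for ZBTB40 and -0.0013 for ZBTB43. For ZBTB34 it was 0.00076 with RLE scaling and 0.0013 with DESeq2. When each library was left out in turn the log2 ranges were -0.0033 to 0.031 for ZBTB40, -0.055 to 0.0024 for ZBTB18, -0.011 to 0.12 for ZBTB44 and -0.10 to 0.0044 for ZBTB1. They were -0.041 to 0.35 for ZBTB42, -0.053 to 0.32 for ZBTB45, -0.019 to 0.068 for ZBTB2, -0.032 to 0.090 for ZBTB43 and -0.055 to 0.028 for ZBTB34.

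Depth limits the low genes: ZBTB16 had 4 to 18 reads a library and ZBTB38 2 to 6 in the knockouts, and intervals from reads cover counting error only.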
